A study of Mus musculus with 5 samples.

Results

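The 9 genes described here, Ndrg1, Vegfa, Bnip3, Egln3, Adm, P4ha1, Pdk1, Ero1l and Ankrd37, are known targets of the hypoxia response, and their levels were followed from the mouse renal cortex through the outer to the inner medulla. They were taken by symbol from the gene tables of 5 single-cell libraries, which list 16934 genes in all, and each of the 9 was listed in every library. All libraries came from wild-type mice, strain labelled C56BL/6N, with no treatment named; the age and the number of animals are not stated. Cortex, outer medulla and inner medulla gave 1 microdissected library each, and whole kidney gave 2. Cells were released with a protease active in the cold, fixed in methanol, frozen and run by Drop-seq, which captures single cells with barcoded beads and counts molecules as unique molecular identifiers (UMIs). Barcodes with at least 200 detected genes were taken as cells, 12121 in all, with 520663 UMIs in the inner medulla, the fewest, to 2886013 in whole kidney 2.

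Oxygen tension falls along the kidney from cortex to papilla. Hypoxia-inducible factors (HIFs) are paired transcription factors whose alpha subunits are marked for destruction by prolyl hydroxylases when oxygen is present. When oxygen is low the alpha subunits persist and bind short DNA motifs near genes for blood vessel growth, glucose use, mitochondrial turnover and collagen processing. The 9 genes cover these roles. Egln3 encodes one of the prolyl hydroxylases, and Vegfa and Adm encode secreted vessel factors. Bnip3 and Pdk1 act on mitochondria, P4ha1 and Ero1l act in the endoplasmic reticulum, Ndrg1 is a cytoplasmic stress-response protein, and Ankrd37 is an ankyrin-repeat protein. The purpose of dissecting regions, as the series title states it, was to relate single-cell expression to position along the corticomedullary axis.

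Because each region had 1 library, no test between regions was possible and no p-value is given. Levels are CPM, the UMIs of a gene per 1000000 UMIs of the cells summed, with exact 95% Poisson intervals. Ratios carry exact conditional 95% intervals. All intervals cover counting error only, not the spread between animals or preparations. The only measure of spread between libraries of one kind was the ratio of whole kidney 2 to whole kidney 1, which need not be separate animals. A gene was called past 2-fold where it had at least 10 UMIs over both sums and a log2 ratio of CPM plus 10 of at least 1 in size.

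Cell classes were rebuilt by clustering without the 9 genes or the pathway lists. Proximal tubule made up 74.1% of cortex cells, 63.9% of outer medulla cells and 9.80% of inner medulla cells, and principal cells of the collecting duct rose from 62 cells in cortex and 169 in the outer medulla to 486 in the inner medulla. The inner medulla also held 123 cells of a cluster led by Bst1 and Nr2e3, which expressed Aqp1 but had too few detected thin limb markers to be named. Of the principal cells, those of cortex and outer medulla all fell in 1 cluster, cluster 10, whereas 431 of the 486 inner medullary cells formed cluster 9, led by Aqp4 and Plet1, and 55 fell in cluster 10. Libraries shared 4 barcodes of cells. A further 442 cells of a cluster led by H2-Aa and Cd74 stayed unnamed. The region of a cell is that of the dissected piece. Whether the 88 proximal tubule cells of the inner medulla and the 15 podocytes of the outer medulla came from neighbouring tissue was not tested. Levels of such classes are therefore not a sure reading of position along the axis.

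Promoter sequences of Egln3 and P4ha1, the pair called higher in the inner medulla, and of Bnip3, called lower there, follow, each as the 250 bases upstream of the start, 5′ to 3′ on the gene's strand. They were taken from RefSeq on GRCm38.p6, and 8 of the 9 genes had a window (Ero1l under its newer symbol). Capitals mark ACGTG and GCGTG, the cores of the motif that HIFs bind, on either strand, so that CACGT and CACGC are their reverse complements and a CACGTG counts on both strands.
Egln3, chr12:54203875-54204124, minus strand: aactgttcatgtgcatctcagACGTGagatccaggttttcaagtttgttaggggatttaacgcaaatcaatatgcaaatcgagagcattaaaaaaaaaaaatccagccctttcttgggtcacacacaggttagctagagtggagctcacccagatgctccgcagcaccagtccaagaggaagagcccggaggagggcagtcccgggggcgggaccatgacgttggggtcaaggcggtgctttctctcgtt
P4ha1, chr10:59323046-59323295, plus strand: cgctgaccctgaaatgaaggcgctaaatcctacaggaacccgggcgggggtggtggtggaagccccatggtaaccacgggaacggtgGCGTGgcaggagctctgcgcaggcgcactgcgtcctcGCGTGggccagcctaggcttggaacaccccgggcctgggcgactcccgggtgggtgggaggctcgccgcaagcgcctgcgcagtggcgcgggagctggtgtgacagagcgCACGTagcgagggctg
Bnip3, chr7:138909507-138909756, minus strand: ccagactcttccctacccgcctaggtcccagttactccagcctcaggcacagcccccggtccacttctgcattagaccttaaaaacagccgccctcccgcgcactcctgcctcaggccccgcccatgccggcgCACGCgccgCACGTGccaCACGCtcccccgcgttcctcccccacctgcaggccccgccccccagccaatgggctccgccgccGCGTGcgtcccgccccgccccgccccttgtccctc
The Egln3 window held 1 match, the P4ha1 window 3 and the Bnip3 window 5. Of all 32851 RefSeq windows of this length, 16.6% held ACGTG, 28.2% held GCGTG and 38.6% held either. Among the 10 windows of the 8 genes, 8 held at least 1 match. These matches describe the letters in the windows and show no binding.

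Over all cells of a library the 9 genes did not move together along the axis. Outer medulla differed little from cortex: none of the 9 was called past 2-fold, where 0.411% of 10950 genes were called higher and 0.174% lower. In the inner medulla against cortex, Egln3 and P4ha1 were called higher (2 of 9, where 18.2% of all genes tested were) and Ndrg1, Vegfa and Bnip3 were called lower (3 of 9, where 7.65% were). The other 4 were not called. The median log2 ratio of all genes at 20 CPM or more was 0.47 for inner medulla over cortex, so whole-library values of that pair are best read against that shift. Against outer medulla the same 5 genes were called, 2 higher (17.6% of all genes) and 3 lower (7.62%). With TMM scaling Egln3 alone was called higher in both. Between the whole kidney libraries, Ndrg1 was the 1 of 9 called lower (0.111% of all genes) and none was called higher (0.0278%). The class make-up differed between these libraries as given above, and its part in the whole-library ratios was not tested except by the levels within classes that follow.

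**Figure D1:**
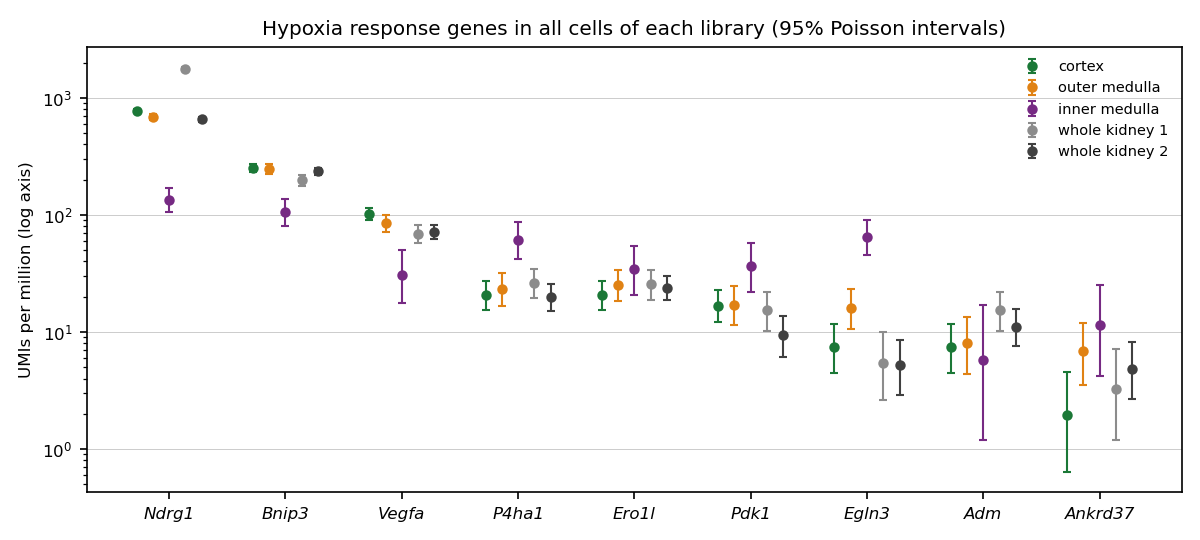
Levels of the 9 genes over all cells of each library, in CPM on a log axis; points are library values and bars are 95% Poisson intervals. Ndrg1, Bnip3, Vegfa and Adm had their lowest value in the inner medulla and the other 5 genes their highest, with intervals that met those of another library for Adm, Pdk1, Ero1l and Ankrd37, and Ndrg1 differed 2.69-fold between the whole kidney libraries.

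Ndrg1 was the most abundant of the 9, with 8355 UMIs in 4309 cells. Proximal tubule held 87.3% of these UMIs and 76.7% of the UMIs of all genes. Pooled over libraries, Ndrg1 was densest in the cluster led by H2-Aa and Cd74, at 1228 CPM (903 to 2004 over 4 libraries). Proximal tubule came next, at 996 CPM. Ndrg1 encodes a protein induced by hypoxia and other stresses. Its level in proximal tubule was 833 CPM in cortex, 715 in the outer medulla, 715 in the inner medulla, and 1957 and 695 in whole kidney 1 and 2. The regions lay close together and whole kidney 1 stood apart. Outer medulla was 0.86 times cortex (0.79 to 0.93) and inner medulla 0.86 times cortex (0.61 to 1.18). Both lie far closer to 1 than the ratio between the whole kidney libraries, where whole kidney 2 was 2.81-fold lower (2.65 to 2.99).

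In principal cells the order was different. Ndrg1 stood at 1001 CPM in cortex (46 UMIs), 664 in the outer medulla (56 UMIs) and 49.0 in the inner medulla (15 UMIs), with 1041 in whole kidney 1 and 359 in whole kidney 2. The inner medulla lay below all 4 other libraries, and its interval of 27.4 to 80.8 CPM met none of theirs. It was 20.4-fold lower than cortex (11.2 to 39.4) and 13.5-fold lower than outer medulla (7.56 to 25.8). Between the whole kidney libraries, whole kidney 2 was 2.90-fold lower (1.56 to 5.57). The outer medulla was 0.66 times cortex (0.44 to 1.00), within that spread.

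The contrast could also be read inside each library, where preparation is shared. Principal cells stood at 1.20 times the proximal tubule of their own library in cortex (0.88 to 1.61), 0.93 in the outer medulla (0.70 to 1.22), and 0.53 and 0.52 in whole kidney 1 and 2. In inner medulla they were 14.6-fold below the 88 proximal tubule cells of the same library (7.84 to 28.5), whose origin was not tested. The share of cells with an Ndrg1 UMI, after thinning each cell to 300 UMIs, was 22.6% of principal cells in cortex, 22.7% in outer medulla and 1.21% in inner medulla (0.39 to 2.80, exact binomial). Before thinning these were 35.5%, 26.0% and 2.26%, at median depths of 463, 387 and 505 UMIs per cell. In the thick ascending limb, where Ndrg1 lay near the free-RNA level (below), the thinned shares were 8.16%, 5.26% and 2.50%, at median depths of 379.5, 354 and 343 UMIs. Thinning left out 9 of 62, 41 of 169 and 73 of 486 principal cells. The inner medullary principal cell share did not exceed that of the thick ascending limb, while those of cortex and outer medulla lay above it. By level the inner medullary value did lie above the estimate of free RNA given further on, so the share and the level differ on whether it is background.

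The 2 principal cell clusters differed within the inner medulla. Cells of cluster 10 held 275 CPM of Ndrg1 (7 UMIs) and cells of cluster 9 held 28.5 CPM (8 UMIs). With cluster 10 alone, the inner medulla was 3.64-fold lower than cortex (1.63 to 9.56) and 2.41-fold lower than outer medulla (1.10 to 6.27). Both differences were thus much smaller than those over all principal cells given above. Their direction held in cluster 10, where the inner medullary value rests on 7 UMIs. The step against outer medulla was smaller than the difference between the whole kidney libraries in principal cells given above. The step against cortex was larger than that difference, with overlapping intervals. Connecting tubule markers moved with the same comparison: the summed level of the list in principal cells was 6313 CPM in cortex, 996 in the outer medulla and 101 in the inner medulla, and their part in the result was not tested.

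**Figure D2:**
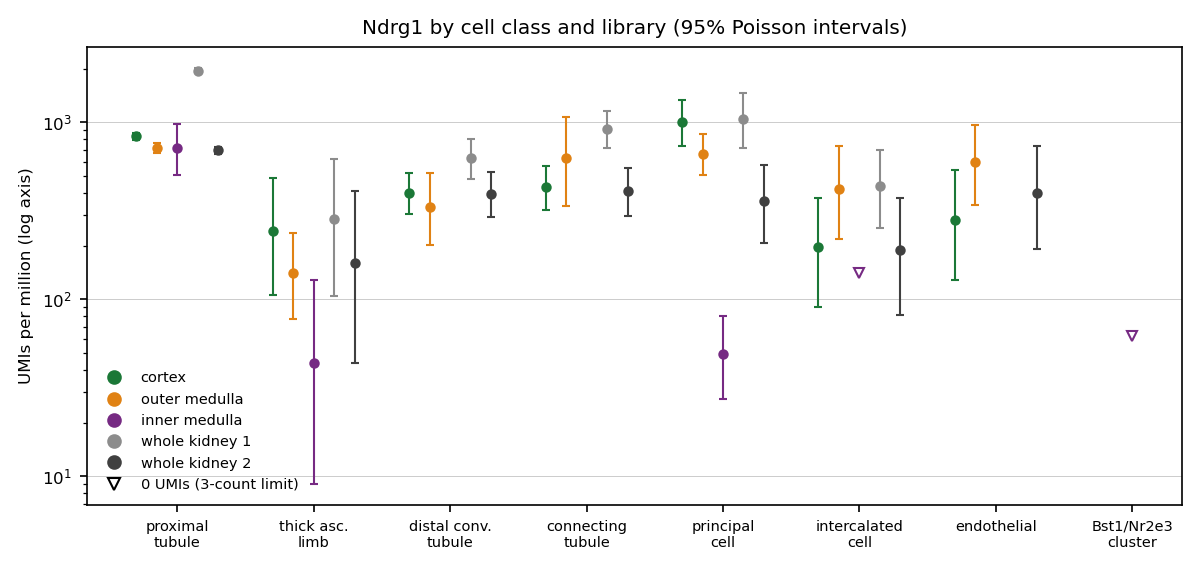
Ndrg1 in 8 cell classes of 5 libraries, in CPM on a log axis, with 95% Poisson intervals; triangles mark 0 UMIs at the level 3 counts would give. Inner medullary principal cells (49.0) lie below the other 4 libraries (359 to 1041), whereas proximal tubule stays at 695 to 833 outside whole kidney 1.

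Free RNA sets a floor under the other Ndrg1 levels. Barcodes with under 100 genes, taken as droplets without a cell, held 855 CPM of Ndrg1 in cortex, 658 in the outer medulla and 241 in the inner medulla. All deposited barcodes had at least 50 genes, so emptier droplets are not among these. Whether some of them held small or damaged cells was not tested. Proximal tubule markers found in other classes put the share of such RNA at 21.9% of thick ascending limb UMIs in cortex and 22.3% in outer medulla, which alone would give 188 and 147 CPM of Ndrg1. The measured levels were 244 and 141 CPM, near these estimates. In the endothelial class in cortex the level was 281 CPM against 470 from free RNA, so the estimate can exceed what was measured. The part of free RNA in these levels was not tested. In principal cells free RNA would give 141 CPM in cortex, 96.3 in the outer medulla and 11.2 in the inner medulla, each below the measured interval of its library. In the inner medulla that interval, 27.4 to 80.8 CPM, starts above the estimate, which counts free RNA of proximal tubule origin only. In intercalated cells, which secrete acid or base, Ndrg1 stood at 198 CPM in cortex, where free RNA would give 171, and at 421 in the outer medulla, where it would give 139. In the inner medulla they held 0 Ndrg1 UMIs. With 3 counts set as the limit for that library, the level would be 2.98-fold below outer medulla. That value leaves out counting error of the outer medullary UMIs. The Bst1 and Nr2e3 cluster also held 0 in the inner medulla.

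Distal convoluted tubule and connecting tubule held intermediate Ndrg1 levels. The distal convoluted tubule had 399 CPM in cortex, 332 in the outer medulla, and 625 and 394 in whole kidney 1 and 2. In each of these libraries it lay below proximal tubule, by ratios of 0.32 to 0.57 with intervals under 1. Among the 5 proximal tubule clusters, the 2 led by genes that include Slc34a3 and Spp2, clusters 0 and 3, held the most Ndrg1, at 1205 and 1328 CPM in cortex against 522 to 563 in the other 3. The same clusters were highest in outer medulla, at 1059 and 1199 CPM against 443 to 639. Proximal tubule thus differed within a region by more than it did between cortex and outer medulla.

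Egln3 encodes the HIF prolyl hydroxylase PHD3, itself a HIF target. Over all cells it stood at 7.43 CPM in cortex (19 UMIs), 16.0 in the outer medulla (28), 65.3 in the inner medulla (34), and 5.46 (10) and 5.20 (15) in whole kidney 1 and 2. The inner medulla was above every other library, and was 8.79-fold above cortex (4.88 to 16.3), while the whole kidney libraries differed by a ratio of 0.95 (0.40 to 2.37). The outer medulla was 2.15 times cortex (1.16 to 4.08).

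The Egln3 UMIs of the inner medulla came mainly from principal cells. These held 24 UMIs (78.4 CPM), against 0 in cortex, 4 in the outer medulla (47.4 CPM), and 1 UMI in each whole kidney library (32.5 and 21.1 CPM). All 24 lay in cluster 9 and none in the inner medullary cells of cluster 10. A count of 0 among the 45937 UMIs of cortical principal cells allows up to 65.3 CPM, so the inner medulla was at least 1.20-fold higher than cortex, and the exact interval of the ratio started at 0.90. Against outer medulla the ratio was 1.65 (0.57 to 6.56). The gradient within principal cells was therefore not separable from counting error at this depth. Free RNA also held Egln3 in the inner medulla, at 74.2 CPM against 2.24 in cortex. The measure from proximal tubule markers, 4.64% of principal cell UMIs there, does not cover RNA released by principal cells or other classes, and the part of free RNA in the Egln3 level was not tested.

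In proximal tubule, Egln3 was 6.40 CPM in cortex (13 UMIs), 15.6 in the outer medulla (20), 0 in the 53155 inner medullary UMIs, and 4.00 and 4.48 in the whole kidney libraries. Outer medulla lay above the other libraries with UMIs, at 2.44 times cortex (1.15 to 5.33), where the whole kidney ratio was 1.12 (0.38 to 3.68). Barcodes under 100 genes held 17.9 CPM of Egln3 in the outer medulla (8 UMIs) and 2.24 in cortex (1 UMI). The part of free RNA in the proximal tubule levels was not tested. Of the 20 proximal tubule UMIs of the outer medulla, 10 fell in cluster 4, led by genes that include Slco1a1 and Slc7a13. There the outer medulla had 23.5 CPM and cortex 5.32, a ratio of 4.41 (1.27 to 19.3). In clusters 0 and 1 outer medulla and cortex held 0 against 9.96 CPM and 22.8 against 12.7. In clusters 2 and 3 they held 16.6 against 12.6 and 7.33 against 0, on 0 to 4 UMIs each. In cluster 4, Egln3 was the only one of 7 genes tested that was called past 2-fold higher, where 0.514% of all genes were. None was called lower (1.65%). Cluster 4 was picked after its values were seen, so its call is a description only. Over the whole proximal tubule no gene of the 8 tested was called, where 0.197% of all genes were higher and 0.0932% lower.

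P4ha1, the catalytic subunit of collagen prolyl 4-hydroxylase, followed Egln3 in the whole libraries. It stood at 20.7 CPM in cortex (53 UMIs), 23.4 in the outer medulla (41), 61.5 in the inner medulla (32), and 26.2 and 19.8 in whole kidney 1 and 2. Only the inner medulla stood apart, 2.97-fold above cortex (1.85 to 4.69). Free RNA differed too: barcodes under 100 genes held 80.4 CPM of P4ha1 in the inner medulla (13 UMIs) and 20.2 in cortex (9 UMIs). The part of free RNA in the P4ha1 levels was not tested. Proximal tubule showed no such step, at 22.1, 19.5, 18.8, 25.3 and 20.3 CPM in the same order. Of the 32 inner medullary UMIs, 17 lay in principal cells (55.5 CPM) and 12 in the Bst1 and Nr2e3 cluster (247 CPM). That cluster was 4.45-fold above the principal cells of its library (1.94 to 9.88), and P4ha1 was the 1 of 5 genes with 10 UMIs or more whose interval excluded 1 on the high side, where 7.35% of 5792 genes did. None did on the low side, where 5.23% of all genes did. Egln3 in the same cluster was 123 CPM (6 UMIs), 1.57 times the principal cells (0.53 to 3.95). Cortical principal cells held 0 P4ha1 UMIs, which allows a level as high as that measured in the inner medulla. The cluster led by H2-Aa and Cd74 held 81.9 CPM of P4ha1 in the outer medulla (10 UMIs, 39.3 to 151). It held 22.9 in cortex (2 UMIs), and 47.7 (2 UMIs) and 0 in whole kidney 1 and 2.

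**Figure D3:**
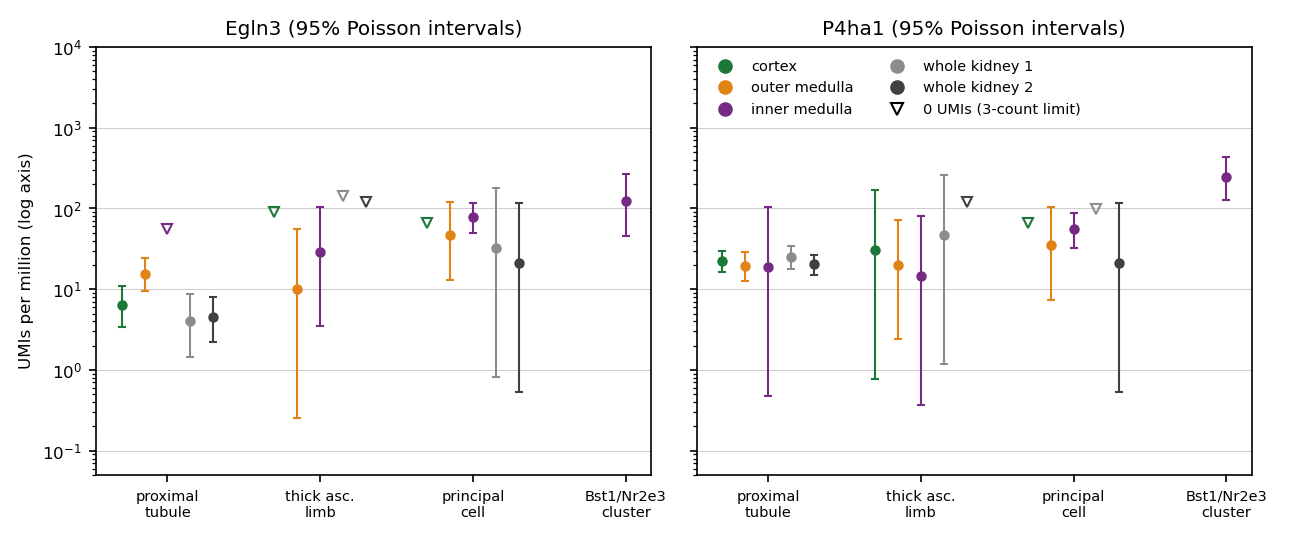
Egln3 (left) and P4ha1 (right) in 4 classes of 5 libraries, in CPM on a log axis, with 95% Poisson intervals; triangles mark 0 UMIs at the level 3 counts would give. Inner medullary principal cells held 78.4 and 55.5, and the cluster led by Bst1 and Nr2e3 held 123 and 247, with wide overlap between regions in principal cells.

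Counted over the 5 of the 9 genes with 10 UMIs or more in inner medullary and cortical principal cells together, 2 were called higher (Egln3 and P4ha1, where 27.1% of 5752 genes were) and 2 lower (Ndrg1 and Vegfa, where 11.7% were). The share called higher is thus near the background. By the interval of the ratio, none was higher (7.51% of all genes) and the same 2 were lower (7.79%). Outer medullary over cortical principal cells gave no call among the 2 genes tested, where 12.8% of all genes were called higher and 8.65% lower. Against outer medulla, Ndrg1 and Bnip3 were called lower in the inner medulla, 2 of 5, where 10.0% of 6105 genes were, and none was called higher, where 18.7% were.

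Vegfa encodes the main growth factor for blood vessels, and podocytes of the glomerulus are a known source. The podocyte class held 17 UMIs in 25 cortical cells (1454 CPM), 24 in 15 outer medullary cells (3351 CPM), 9 in 11 cells of whole kidney 1 (1336 CPM) and 4 in 10 cells of whole kidney 2 (837 CPM). In each of these libraries podocytes lay above all other cells together, by 15.2-fold in cortex (8.70 to 24.8), 47.1-fold in outer medulla (29.1 to 73.4), 20.7-fold in whole kidney 1 (9.23 to 40.6) and 11.9-fold in whole kidney 2 (3.22 to 31.0). These podocyte sums are below the minimum of 30 cells and 20000 UMIs used for the other classes. None of the 898 inner medullary cells fell in this class. Since podocytes were few, 73.4% of all Vegfa UMIs still came from proximal tubule, which held 76.7% of the UMIs of all genes.

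Vegfa in proximal tubule was 98.9 CPM in cortex (201 UMIs), 73.3 in the outer medulla (94), 56.4 in the inner medulla (3), and 59.3 (89) and 68.8 (169) in whole kidney 1 and 2. Outer medulla was 0.74 times cortex (0.57 to 0.95), and the whole kidney ratio was 1.16 (0.89 to 1.52). In principal cells it was 131 CPM in cortex (6 UMIs), 35.6 in the outer medulla (3), 16.3 in the inner medulla (5), and 32.5 (1) and 0 in whole kidney 1 and 2. The inner medulla was 0.13 times cortex (0.03 to 0.49), but both whole kidney values lay below cortex as well. Over all cells Vegfa was 102, 84.5, 30.7, 69.3 and 71.4 CPM, and the inner medulla was 3.32-fold below cortex (2.01 to 5.89).

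Of the 9 receptor genes of Vegfa and Adm, 6 had UMIs in cortical endothelial cells (Kdr, Flt1, Nrp1, Calcrl, Ramp2 and Ramp3), and Flt4, Nrp2 and Ramp1 had none there. Kdr, the main signalling receptor for Vegfa, had 16 UMIs (500 CPM) in cortical endothelial cells. Calcrl and Ramp2, which together form an adrenomedullin receptor, had 469 and 656 CPM in the same cells. Flt1, another Vegfa receptor, had 219 CPM and Ramp3, another partner of Calcrl, 406 CPM. Nrp1, a co-receptor for Vegfa, had 1032 CPM in cortical endothelial cells and 314 CPM (96 UMIs) in the inner medullary principal cells, against 0 in cortical principal cells.

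Adm, the vasodilator peptide adrenomedullin, was scarce, with 96 UMIs in 93 cells. Over all cells it stood at 7.43, 7.99, 5.76, 15.3 and 11.1 CPM in cortex, outer medulla, inner medulla and the whole kidney libraries, with intervals that overlapped between regions. Podocytes, which were few, held 3 UMIs in cortex (257 CPM, 52.9 to 750) and 1 in whole kidney 2 (209 CPM). Among classes with at least 30 cells and 20000 UMIs in a library, and pooled over libraries, it was densest per UMI in intercalated cells (56.6 CPM) and connecting tubule (34.4 CPM). Connecting tubule held 34.3 CPM in cortex, and 37.7 and 38.8 in the whole kidney libraries. Intercalated cells held 22.0 and 70.2 CPM in cortex and outer medulla, and 76.7 and 94.3 in whole kidney. These values rest on 1 to 4 UMIs each. In cortex alone, principal cells held more, 43.5 CPM from 2 UMIs. No Adm UMI was found in the thick ascending limb or the distal convoluted tubule of any library. No direction along the medulla could be read at this depth.

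Bnip3 encodes a mitochondrial receptor for mitophagy. Across proximal tubule it was even, at 243 CPM in cortex, 271 in the outer medulla, 207 in the inner medulla, and 211 and 242 in whole kidney 1 and 2. Outer medulla was 1.12 times cortex (0.97 to 1.28), within the whole kidney ratio of 1.15. In principal cells it was 109 CPM in cortex (5 UMIs), 178 in the outer medulla (15), 55.5 in the inner medulla (17), and 65.1 (2) and 127 (6) in whole kidney 1 and 2. The inner medulla was lowest, 3.20-fold below outer medulla (1.49 to 6.81) and 1.96-fold below cortex (0.57 to 5.53). Within the inner medullary library, principal cells lay 3.73-fold below its 88 proximal tubule cells (1.58 to 8.43). In the other 4 libraries that ratio was 0.31 to 0.66, each with an interval that reached 1. The lower whole-library value of Bnip3 in the inner medulla, 106 CPM against 252 in cortex, was seen together with more principal cells and a lower level in them than in outer medulla.

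In the thick ascending limb, the segment that dilutes the urine, Bnip3 stood at 367 CPM in cortex (12 UMIs), 121 in the outer medulla (12), 190 in the inner medulla (13), and 189 (4) and 281 (7) in whole kidney 1 and 2. Outer medulla was lowest, 3.04-fold below cortex (1.25 to 7.40), and Bnip3 was the 1 of 3 genes tested called lower, where 8.0% of all genes were (15.4% higher). The whole kidney ratio was 1.49 (0.38 to 6.92). In the inner medulla, Ndrg1 alone was called lower in this segment, 1 of 2 genes against cortex (11.2% of all genes lower, 16.7% higher) and 1 of 3 against outer medulla (13.9% lower, 7.27% higher). The cortical and outer medullary levels of Ndrg1 in this segment lay near the free-RNA estimates given above.

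Pdk1 encodes a kinase that inhibits mitochondrial pyruvate dehydrogenase, and it differed between classes. Proximal tubule held 5.41 CPM in cortex (11 UMIs), 5.46 in the outer medulla (7), 0 in the inner medulla, and 1.33 (2) and 4.48 (11) in whole kidney 1 and 2, and the cortical level is below the 31.4 CPM of barcodes under 100 genes in cortex. Distal convoluted tubule held 96.3 CPM in cortex, 99.7 in the outer medulla, and 135 and 73.9 in whole kidney 1 and 2. It was above proximal tubule in each of these, by 17.8-fold in cortex (7.50 to 43.3), 18.3-fold in outer medulla (5.08 to 63.5), 102-fold in whole kidney 1 (23.0 to 927) and 16.5-fold in whole kidney 2 (6.04 to 43.8). Thick ascending limb held 91.7, 70.3 and 72.9 CPM in cortex, outer and inner medulla, with ratios to cortex of 0.77 (0.18 to 4.60) and 0.80 (0.15 to 5.12). Pdk1 over all cells was 2.17-fold higher in inner medulla than in cortex (1.19 to 3.81), a library with few proximal tubule cells.

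**Figure D4:**
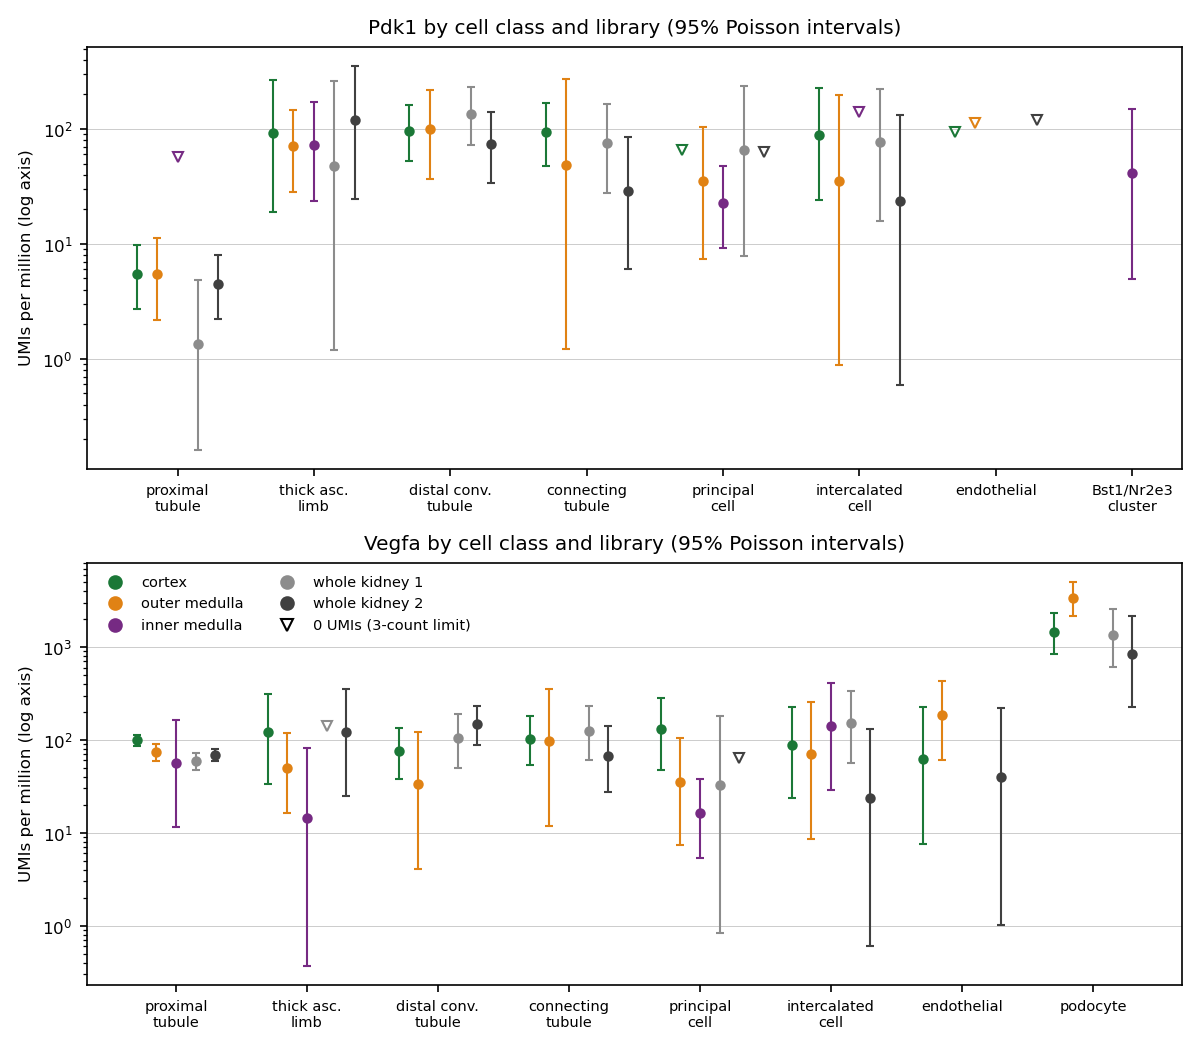
Pdk1 (top) and Vegfa (bottom) by class and library, in CPM on a log axis, with 95% Poisson intervals; triangles mark 0 UMIs at the level 3 counts would give. Pdk1 in proximal tubule (1.33 to 5.46) lies below the distal convoluted tubule (73.9 to 135), and Vegfa in podocytes (837 to 3351) lies above every other class shown.

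Ero1l, an oxidase that forms disulfide bonds in secreted proteins, was nearly level. It stood at 20.7, 25.1, 34.6, 25.6 and 23.9 CPM over all cells in cortex, outer medulla, inner medulla and the whole kidney libraries, and at 22.1, 24.9, 37.6, 22.7 and 22.4 CPM in proximal tubule. The inner medulla was 1.67 times cortex over all cells (0.92 to 2.90). Ankrd37 was the scarcest, with 43 UMIs in 41 cells. Its level was 1.95 CPM in cortex (5 UMIs), 6.85 in the outer medulla (12), 11.5 in the inner medulla (6), and 3.27 (6) and 4.85 (14) in whole kidney 1 and 2. Cortex was the lowest library. Outer medulla was 3.51 times cortex (1.15 to 12.7) and inner medulla 5.90 times cortex (1.50 to 24.4), where the whole kidney ratio was 1.48 (0.54 to 4.71). Neither step was called past 2-fold on the scale of CPM plus 10, and both intervals overlapped that of the whole kidney ratio.

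Other genes of the pathway did not share one direction in principal cells either. Genes counted had at least 20 CPM on either side, which 1 UMI (21.8 CPM) meets in cortical principal cells. The list counts in these cells can therefore include genes near the floor. Of 9 HIF pathway components measured, 6 were higher and 3 lower in the inner medulla than in cortex, with a median log2 ratio of 0.77, where the median of 8513 genes was -0.06. Hif1a, the oxygen-regulated alpha subunit, stood at 304 CPM (93 UMIs) against 131 (6 UMIs), a ratio of 2.33 (1.03 to 6.50). Egln1, the main HIF prolyl hydroxylase, stood at 22.9 CPM against 65.3, a ratio of 0.35 (0.08 to 2.10). Of 25 other HIF target genes, 12 were higher and 13 lower, with a median of -0.03. Slc2a1, the glucose transporter GLUT1, was 16.3 against 152 CPM, a ratio of 0.11 (0.03 to 0.39), whereas Anxa2, a membrane-binding protein, was 617 against 109 CPM, a ratio of 5.67 (2.39 to 17.7).

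Glycolytic HIF target genes leaned low, with 3 of 10 higher and 7 lower and a median of -0.37. Aldoa stood at 983 against 1611 CPM, a ratio of 0.61 (0.47 to 0.80), and Tpi1 at 320 against 718 CPM, a ratio of 0.45 (0.30 to 0.68). Ldha, which makes lactate, went the other way, at 673 against 370 CPM and a ratio of 1.82 (1.11 to 3.18). Among paralogs of the 9 genes, Vegfb, another vessel factor, was 32.7 against 261 CPM, a ratio of 0.13 (0.05 to 0.32), and Bnip3l, a second mitophagy receptor, was 163 against 109 CPM, a ratio of 1.50 (0.60 to 4.82).

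Stress lists were counted in the same cells, where 51.4% of all 8513 genes were lower. Osmotic response genes had 7 of 9 higher and a median of 2.15, with Cryab, a small heat-shock protein, at 8761 against 283 CPM (2682 UMIs against 13), a ratio of 31.0 (18.1 to 58.2). Of 10 unfolded protein response genes 7 were higher, with a median of 0.27, and Ddit3 stood at 278 against 43.5 CPM (85 UMIs against 2), a ratio of 6.38 (1.71 to 53.5). Of 8 immediate early genes 5 were higher, with a median of 0.73, and Btg2 stood at 258 against 21.8 CPM (79 UMIs against 1), a ratio of 11.9 (2.07 to 474). Their part in the levels of the 9 genes was not tested.

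**Figure D5:**
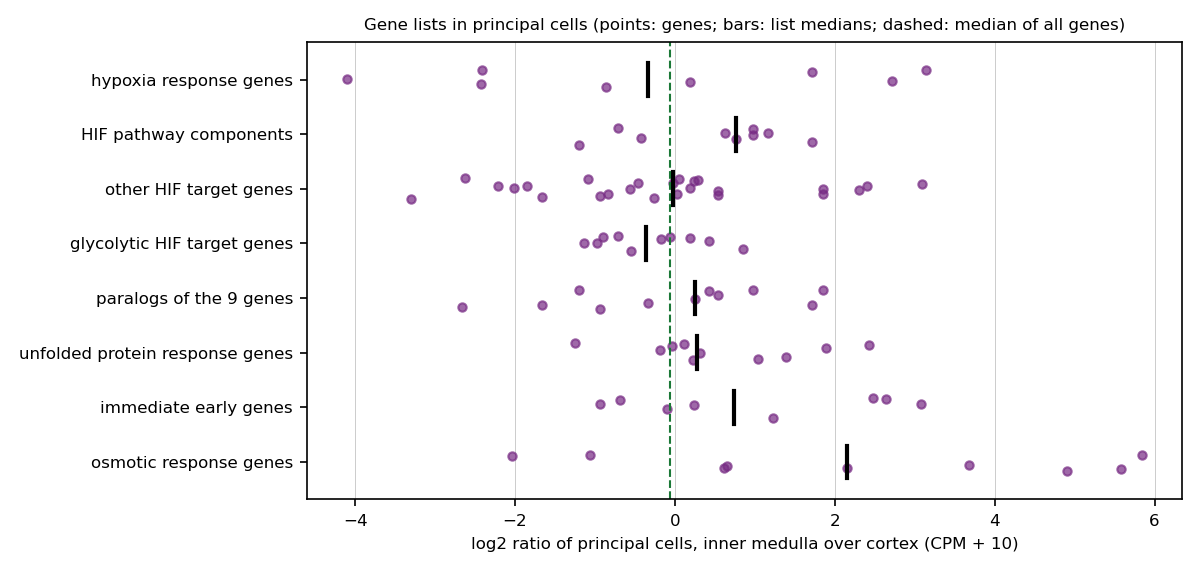
Log2 ratios of CPM plus 10 in principal cells, inner medulla over cortex, for the genes of 8 lists with at least 20 CPM on either side; points are genes, bars are list medians and the dashed line is the median of all genes (-0.06). The hypoxia response genes that met this minimum spread on both sides (median -0.34), and osmotic response genes had the highest median (2.15). In cortical principal cells 1 UMI is 21.8 CPM and meets the minimum. Egln3, P4ha1 and Pdk1 had 0 UMIs there, Ero1l had 1, and Adm had 2 against 0 in inner medulla. The spread and median of the hypoxia response genes rest partly on such low counts. Ankrd37, at 9.80 CPM in inner medulla and 0 in cortex, was under the minimum and is not in that median.

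The patterns most like each gene were sought over 36 class sums and 3556 genes, by Pearson correlation of log2 CPM plus 10. These sums share libraries, depth and free RNA, and the values are a description. Ndrg1 was most like 0610005C13Rik (0.84), AI314278, Spink1, Slc4a4 and Ttc36. Pdk1 was most like Tmem72 (0.78), Atp1b1, Kctd1, Kng2 and Sdc4. Bnip3 was most like Ndufa13 (0.62), Mpc1, Uqcr11, Usmg5 and Ndufv3. The closest gene was Umad1 for Ero1l (0.62), Hacd4 for Egln3 (0.60), Sqstm1 for P4ha1 (0.58) and Hnrnpa0 for Vegfa (0.56), and Adm and Ankrd37 had too few UMIs to be compared.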

How the data were processed

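Drop-seq libraries of cortex, outer medulla, inner medulla (1 each) and whole kidney (2) were analysed. The deposited tables hold UMI counts as whole numbers, genes by barcodes, which the authors left without normalization as far as the values show. Mitochondrially encoded symbols numbered 0, so RNA quality could not be read from them. The submitters' processing notes name mm9 and Seurat 2.3.1 with no role; the aligner is not given in the sources used here. Promoter windows come from RefSeq on GRCm38.p6, another build than mm9, and were matched by symbol.

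Cells were barcodes with at least 200 genes; totals per library were 520663 to 2886013 UMIs. Scrublet marked 22 cells (0.182%), too few for the caller to have worked, so none was removed and doublets remain. Cells were clustered with scanpy 1.11.5 and leidenalg 0.10.2 (2000 variable genes, 30 principal components, 15 neighbours, resolution 1.0), leaving out the 9 genes and the pathway lists. Clusters took the class of their markers if at least 3 were detected in 10% of their cells. Counts were summed per class and library. A class was compared with at least 30 cells and 20000 UMIs on each side; podocytes, below this minimum, are given for Vegfa and Adm as an exception made after their values were seen. Log2 ratios used CPM plus 10, which understates changes of low genes. The free-RNA share is the proximal tubule marker share of a class over that of barcodes under 100 genes; it misses RNA that leaks from other classes. Calls were tested on simulated data. Named list genes are the up to 4 with most UMIs or the largest log2 ratios; all lists are counted. The receptor levels by class and the proximal tubule clusters were chosen after their values were seen. The 9 genes and the lists were chosen with earlier results of these data known. Alternatives changed the pseudocount, UMI minimum, gene minimum, scaling (edgeR 4.0.16 TMM), doublets, class rule and free RNA.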

Additional observations from a re-analysis of the deposited data

Results flagged for a closer look

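Bnip3 went in opposite directions between outer medulla and cortex in 2 classes. In endothelial cells the log2 ratio of CPM plus 10 was 2.25 (9 UMIs against 2), and in the thick ascending limb it was -1.53 (12 against 12). With 1 library per region the difference between the classes was not tested. In endothelial cells free RNA alone would give 129 CPM of Bnip3 in cortex and 163 in the outer medulla, against measured levels of 62.5 and 335 CPM.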

How the results depend on the processing

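Counts of genes past 2-fold are given as higher and lower among the 9. With no minimum of UMIs, principal cells of outer medulla over cortex gave 4 higher and 2 lower, and the thick ascending limb gave 2 and 2 for outer medulla over cortex, 3 and 2 for inner medulla over cortex, and 1 and 2 for inner over outer medulla. With a minimum of 30 UMIs, principal cells of inner medulla over cortex gave 0 and 1, and the thick ascending limb gave 0 lower in all 3 comparisons. Removing the top 5% of cells by doublet score gave 1 higher in principal cells of outer medulla over cortex, 0 lower in the thick ascending limb of inner medulla over cortex and over outer medulla, and 1 higher in the whole inner medulla library against cortex and against outer medulla. Classes from each cell's marker score gave 1 higher in principal cells of inner over outer medulla (P4ha1), and 0 lower for outer medulla over cortex and 2 lower for inner over outer medulla in the thick ascending limb. The inner medullary cells of the shared principal cell cluster, an alternative chosen after seeing the data, gave 0 higher and 1 lower (Ndrg1) against cortex. Subtracting free RNA gave 2 lower in the thick ascending limb of outer medulla over cortex, and 2 higher and 0 lower there for inner over outer medulla, where the log2 ratio of Ndrg1 reversed to 2.03. A pseudocount of 1 CPM gave 2 higher in the whole outer medulla library over cortex, 2 higher in its proximal tubule, and 4 higher in the whole inner medulla library over cortex. A pseudocount of 50 CPM gave 1 higher and 1 lower for the whole inner medulla library over cortex, and 0 higher and 1 lower over outer medulla. TMM scaling, and likewise a minimum of 500 genes per cell, gave 1 higher for the whole inner medulla library over cortex and over outer medulla. The cause of these moves was not tested, other than that fewer UMIs or cells enter by construction. Of 128 recomputed values of the 19 called log2 ratios, 125 kept their sign. The minimum of 500 genes could not be run for principal cells and thick ascending limb, which then had too few cells. No paired analysis was possible because each region has 1 library and the groups share fewer than 2 replicate numbers. Depth limits mainly Adm, Ankrd37, and Egln3 and P4ha1 in cortical principal cells.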

Other observations

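Ndrg1 was among the 12 genes called past 2-fold lower in whole kidney 2 than in whole kidney 1 over all cells, of 10806 tested; 3 genes were called higher. The following genes were named after their values were seen. Cyp24a1, the enzyme that breaks down active vitamin D, stood at 27.7 CPM in whole kidney 2 against 143 in whole kidney 1. Slc16a1, a lactate transporter, stood at 20.1 against 56.2 CPM. Dbp, a transcription factor driven by the circadian clock, went the other way, at 205 against 42.0 CPM. Rn45s, the ribosomal RNA precursor, was 7499 against 15820 CPM. The other 8 hypoxia response genes were not called between these libraries.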
